A study of Mus musculus with 12 samples.

Results

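Bach2, Id3, Bcl6, Foxo1, Myb, Satb1 and Foxp1 are transcription regulators tied to the naive, memory and stem-like states of T cells. They were taken by gene symbol, and the estimated counts and the TPM of all their Ensembl transcripts were summed, which gives 7 genes of 35855 in all. The 7 genes hold 64 transcripts, from 1 for Foxo1 to 31 for Foxp1. On GRCm38 they lie at chr4:32238804-32586108 (Bach2, plus strand), chr4:136143497-136145755 (Id3, plus), chr16:23965052-23988852 (Bcl6, minus), chr3:52268336-52353221 (Foxo1, plus), chr10:21124935-21160984 (Myb, minus), chr17:51736187-51833290 (Satb1, minus) and chr6:98925338-99522721 (Foxp1, minus).

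T cells that have not met antigen, and memory T cells that can renew themselves, keep a set of transcription regulators on that the effector state turns down. Among these 7, Id3 holds back the E proteins, Bach2 and Bcl6 repress effector genes, Foxo1 and Foxp1 are forkhead factors of quiescence and survival, Satb1 organizes chromatin, and Myb is linked to self-renewal. TCF-1, which the gene Tcf7 encodes, is a partner of several of them in the same state. Most of the 7 are also used by B cells, where Bach2, Bcl6, Foxo1, Foxp1 and Id3 have roles of their own.

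The data are RNA-seq libraries labelled as sorted CD8 T cells from mouse spleen, in 4 groups of 3 on the C57BL/6 background: WT and TCF-1 cKO (titled TCF-7 cKO) donors before transplant, and donor cells of both genotypes 7 days after transplant. TCF-1 cKO mice carry a floxed Tcf7 and the Cre recombinase of the CD4 promoter, which acts at the CD4 CD8 double positive stage of the thymus and so removes TCF-1 from all mature T cells. Pre-transplant cells were sorted from donor spleen. Post-transplant cells were H2Kb+ donor CD8 T cells sorted from the spleen of lethally irradiated BALB/c recipients, which had received CD3 donor T cells with T-cell-depleted WT bone marrow. The donors were female, and their ages were matched as far as possible among the donors and with the recipients. Each group is 3 samples of a single RNA-seq experiment, so p-values measure the spread between these samples.

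Several facts about the libraries bear on every value below. Total estimated counts came to between 18184814 and 32657005 in 9 libraries and to between 4520270 and 9577076 in the 3 libraries of TCF-1 cKO before transplant, so the last group is the least precise. For replicate 2 of the day 7 TCF-1 cKO group, the source label and the title disagree on CD4 or CD8. Its Cd8a level was 151 TPM and its Cd4 level 0.453 TPM, and it was kept by its title. Tcf7, the targeted gene, was at 66.9, 49.7 and 87.1 TPM in WT and 22.1, 31.7 and 38.6 TPM in TCF-1 cKO before transplant. At day 7 it was at 6.55, 4.69 and 2.23 TPM in WT and 2.79, 2.97 and 2.84 TPM in TCF-1 cKO, and the groups overlap. In edgeR's quasi-likelihood test its log2 fold change was -1.36 ± 0.46 before transplant and -0.91 ± 0.55 at day 7. Neither passed an FDR of 0.1 (edgeR, adjusted p = 0.223 and 0.308). Before transplant every TCF-1 cKO library was below every WT library, beside 7.90% of all genes lower without overlap in TPM. Summed CD8 T cell markers were also lower in these TCF-1 cKO libraries (905 to 1060 TPM against 2060 to 2140 TPM). Their part in the Tcf7 values was not tested. The deleted exons are not given in the sources used here, so the sum over the gene cannot show whether part of it was lost.

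The pre-transplant libraries did not look like sorted CD8 T cells. Summed over 13 B cell markers, such as Cd79a and Ms4a1, the level was 10900 to 14000 TPM in WT and 6880 to 10900 TPM in TCF-1 cKO before transplant. Summed over 8 CD8 T cell markers, such as Cd3e, Cd8a and Trac, it was only 2060 to 2140 TPM and 905 to 1060 TPM. Erythroid markers (7 genes, among them the globins) came to between 12000 and 56600 TPM and myeloid markers (10 genes) to between 1970 and 4820 TPM in the same 6 libraries. At day 7 this was turned round: CD8 T cell markers came to 4390 to 5360 TPM in WT and 4720 to 5210 TPM in TCF-1 cKO, B cell markers to 222 to 316 TPM and 122 to 198 TPM. No marker of these 4 lists was at or under 3 counts in every library of a group. In bulk RNA, fewer cells of a type and less RNA per cell cannot be told apart, so a difference between stages in the 7 genes cannot be told apart from this difference in markers.

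**Figure D1:**
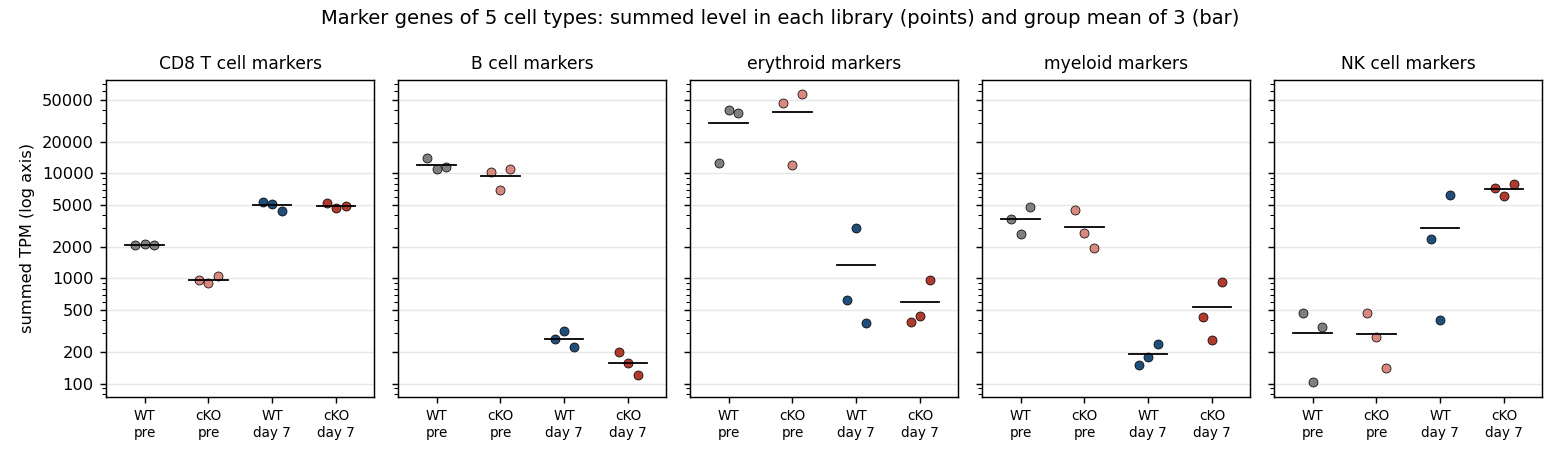
Summed TPM of the marker genes of 5 cell types (y axis, log scale) in the 4 groups (x axis), with a point for each library and a bar for the mean of 3. B cell markers sit at 6880 TPM or more in all 6 pre-transplant libraries and at 316 TPM or less in all 6 day 7 libraries, while CD8 T cell markers are highest at day 7.

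The level of each gene was first set out by group in TPM, which is scaled for transcript length and for the library total and so allows genes to be compared. Before transplant, Id3 and Foxp1 were the most abundant of the 7 in both genotypes, with group means of 151 to 196 TPM. Satb1 followed at 25.1 to 40.2 TPM, and Bach2, Bcl6, Foxo1 and Myb lay between 5.18 and 18.8 TPM. At day 7 no mean was above 5.86 TPM except that of Id3 in WT, at 20.2 TPM. When the 4 groups were ranked for each gene, the first and second places always went to the pre-transplant groups. Of the 21 pairs of neighbouring groups in these rankings, 11 did not overlap. The share of such pairs over all genes was not computed. In TPM, 44.2% of all genes in WT and 59.1% in TCF-1 cKO were lower at day 7 without overlap. Between the genotypes at day 7, 22.1% of all genes were higher and 16.5% lower in TCF-1 cKO without overlap. For Myb no neighbours were apart. For Bcl6 and Foxp1 the only gap lay between the stages, and for Id3 and Bach2 a second gap lay between the genotypes at day 7.

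**Figure D2:**
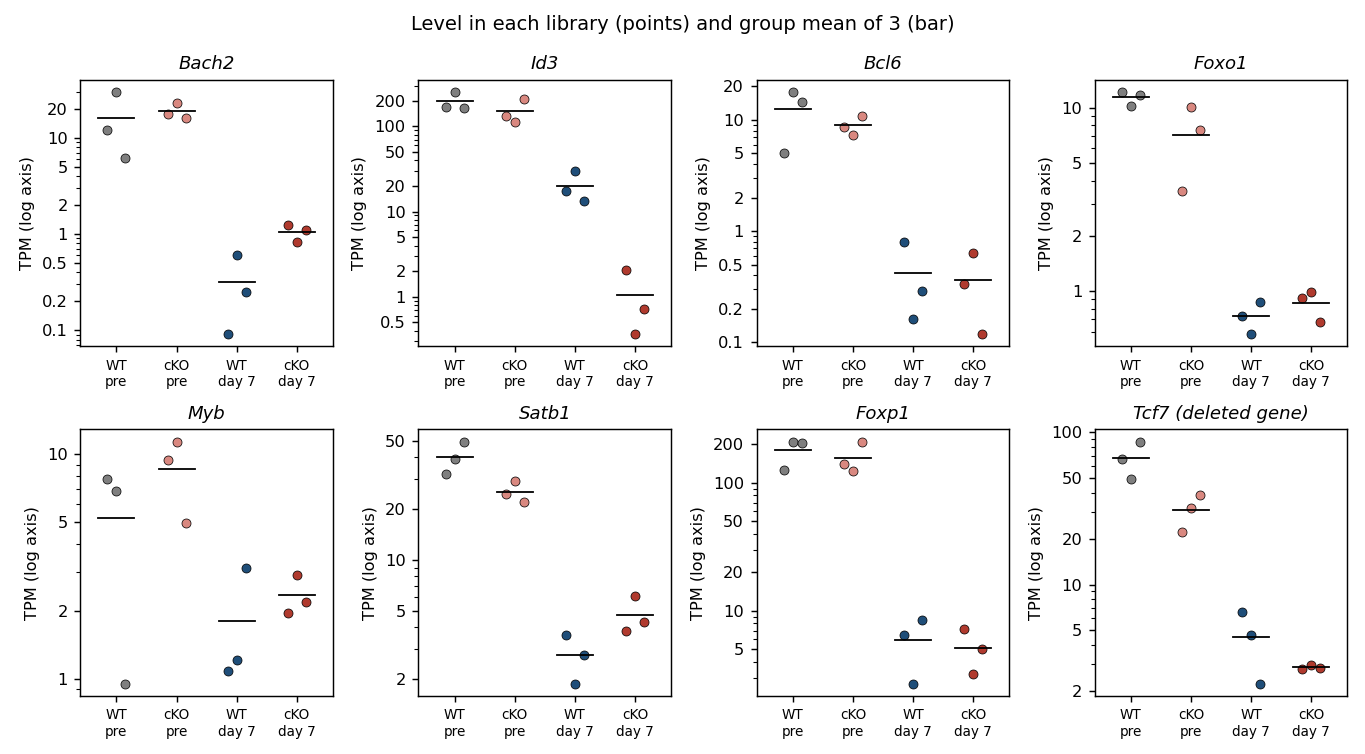
Level of the 7 genes and of Tcf7, the gene targeted in the knockout, in TPM (y axis, log scale) in the 4 groups (x axis), with a point for each library and a bar for the mean of 3. Id3 is at 13.2 to 29.9 TPM in WT and at 0.367 to 2.04 TPM in TCF-1 cKO at day 7, and the other 6 genes show no gap of that size between the genotypes.

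To ask what the loss of TCF-1 did to these genes in alloactivated cells, the genotypes were compared at day 7. Id3 was the only one of the 7 that passed the test (edgeR, FDR below 0.1), and it was lower in TCF-1 cKO. Its level was 17.4, 29.9 and 13.2 TPM in the WT libraries and 2.04, 0.367 and 0.723 TPM in the TCF-1 cKO libraries, from 343 to 973 counts in WT and from 10 to 56 counts in TCF-1 cKO. The groups do not overlap, and the lowest WT library is several fold above the highest TCF-1 cKO library. Id3 encodes an inhibitor of DNA binding that has no DNA-binding domain of its own and titrates E proteins such as the product of Tcf3. In edgeR's quasi-likelihood test the log2 fold change was -4.55 ± 0.81 (SE, n = 3 a group, adjusted p = 0.0448), which was rank 32 by p among 16026 genes. Of all genes tested, 15.4% fell and 2.51% rose in this comparison (FDR below 0.1), beside 1 and 0 of the 7.

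The size of the Id3 difference changed with an offset for GC content and length, and its call with single libraries. At day 7 the genotype difference followed GC content over all genes, with a median log2 fold change of 0.65 in the tenth of genes with the lowest GC content and -2.58 in the tenth with the highest. Id3 transcripts have a GC content of 55.8%, the highest of the 7, and a mean length of 1248 bases, the shortest. The parts of GC content and of length were not tested apart. With an offset for GC content and length the Id3 difference was -3.12 ± 0.63 (edgeR, adjusted p = 0.0925). The difference stayed between -5.57 and -4.0 when each library was left out in turn, but its adjusted p (edgeR) rose to between 0.109 and 0.178 without WT replicate 1 or 2 or any TCF-1 cKO replicate and was 0.00377 without WT replicate 3. B cell markers also did not overlap between the genotypes at day 7 (222 to 316 TPM in WT, 122 to 198 TPM in TCF-1 cKO), but Ighm, an immunoglobulin heavy chain gene, held 236 of the mean of 268 TPM and 139 of the mean of 159 TPM, and without it the groups overlapped (24.2 to 43.2 and 17.5 to 24.7 TPM). Per 1000 TPM of B cell markers, Id3 was at 59.3 to 94.7 TPM in WT and 2.35 to 10.3 TPM in TCF-1 cKO, and per 1000 TPM of CD8 T cell markers at 3.00 to 5.87 TPM and 0.0777 to 0.391 TPM. Without Ighm the first scale gave 545 to 694 TPM and 20.9 to 82.5 TPM. The groups did not overlap on any of these scales, where 8.23% (B cell markers), 17.4% (CD8 T cell markers) and 9.85% (B cell markers without Ighm) of all genes were lower without overlap. The CD8 T cell marker sum was itself mixed at day 7. Of its 8 genes, 2 (Cd3e and Lck) were called lower in TCF-1 cKO and 0 higher, beside 15.4% and 2.51% of all genes (edgeR).

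The other 6 genes did not pass the test at day 7. Satb1, a chromatin organizer that T cell development needs, was at 3.62, 1.87 and 2.77 TPM in WT and 3.83, 6.10 and 4.31 TPM in TCF-1 cKO. Every TCF-1 cKO library was above every WT library, with a log2 fold change of 0.55 ± 0.43 (edgeR, adjusted p = 0.434). Over all genes, 22.1% were higher and 16.5% lower in TCF-1 cKO without overlap in TPM at day 7. In TMM-normalized CPM, Id3 and Satb1 were apart, beside 38.8% of all genes in either direction. Bach2, a repressor of effector genes in the BTB family, was at 0.0919, 0.606 and 0.248 TPM in WT and 1.23, 0.829 and 1.09 TPM in TCF-1 cKO. These groups do not overlap either, yet the test on its counts gave -0.16 ± 0.77 (edgeR, adjusted p = 0.911). The TPM of its protein-coding transcripts alone was 0.0687, 0.414 and 0.248 in WT and 0.266, 0.125 and 0.348 in TCF-1 cKO, which overlap. With counts scaled from TPM in place of summed counts, the Bach2 difference was 1.32.

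The remaining 4 genes overlapped between the genotypes at day 7. Foxo1, a forkhead factor held in check by Akt, ranged from 0.583 to 0.870 TPM in WT and from 0.677 to 0.987 TPM in TCF-1 cKO. Foxp1, a forkhead factor of T cell quiescence, ranged from 2.70 to 8.41 TPM and from 3.22 to 7.16 TPM. Bcl6, a repressor that works with corepressors, ranged from 0.163 to 0.805 TPM and from 0.119 to 0.631 TPM. Myb ranged from 1.08 to 3.12 TPM and from 1.97 to 2.90 TPM. Their log2 fold changes lay between -0.42 and 0.20, with adjusted p-values (edgeR) of 0.584 to 0.958. Their SEs were 0.43 to 0.84, so differences of this size could not be told from 0 with 3 libraries a group.

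Before transplant the same comparison asked whether these genes differed between the genotypes in the donor libraries. None of the 7 passed the test (edgeR, 3322 of 18757 genes at an unadjusted p under 0.05), and only 0.0213% of all genes fell and 0.016% rose. In TMM-normalized CPM, 3 of the 7 (Foxo1, Satb1 and Foxp1) were lower without overlap, beside 30.3% of all genes apart in either direction. Satb1 was at 31.7, 39.3 and 49.5 TPM in WT and 24.5, 29.1 and 21.9 TPM in TCF-1 cKO. Every TCF-1 cKO library was lower, with a log2 fold change of -1.17 ± 0.42 (edgeR, adjusted p = 0.228). Foxo1 was at 12.2, 10.2 and 11.7 TPM in WT and 3.53, 10.1 and 7.57 TPM in TCF-1 cKO, again without overlap, at -0.92 ± 0.47 (edgeR, adjusted p = 0.311). Over all genes, 7.90% were lower and 19.3% higher without overlap in TPM. DESeq2 called Satb1 alone of the 7 (adjusted p = 0.0875), beside 7.76% of all genes in either direction.

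CD8 T cell markers were also lower in TCF-1 cKO before transplant, at 905 to 1060 TPM against 2060 to 2140 TPM, and their part in the Satb1 and Foxo1 values was not tested. Per 1000 TPM of these markers, none of the 7 genes was lower in TCF-1 cKO without overlap, beside 0.421% of all genes. Bach2, Id3, Myb and Foxp1 were higher without overlap, beside 46.7% of all genes, and Satb1 ranged from 15.4 to 23.7 TPM in WT and from 20.6 to 32.1 TPM in TCF-1 cKO. Per 1000 TPM of B cell markers all 7 genes overlapped, with Ighm or without, beside 22.4% of all genes higher and 2.75% lower with Ighm. DESeq2 aside, the call on Satb1 and Id3 also turned on 1 library. Without TCF-1 cKO pre-transplant replicate 3, which had the most counts of its group, Satb1 was at -1.29 (edgeR, adjusted p = 0.0822) and Id3 at -1.20 (edgeR, adjusted p = 0.068), beside 12.7% of all genes called in either direction.

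**Figure D3:**
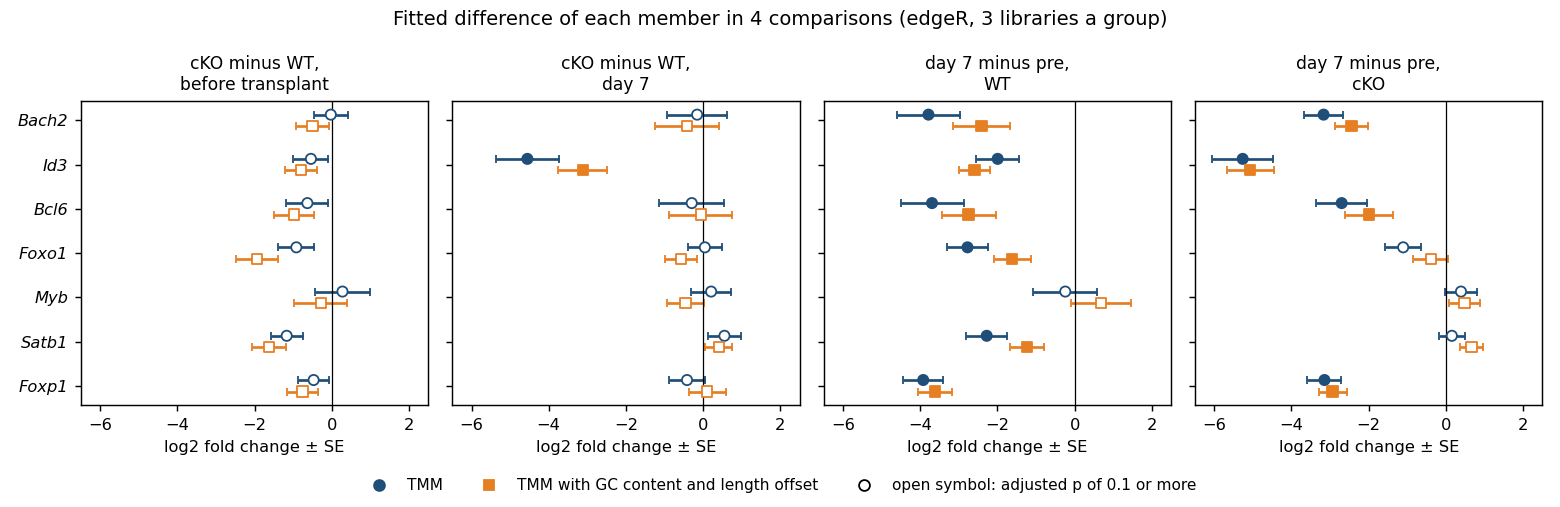
Fitted log2 fold change ± SE (x axis) of the 7 genes (y axis) in 4 comparisons of 3 libraries against 3, without (circles) and with (squares) an offset for GC content and length. Filled symbols have an adjusted p below 0.1 in edgeR. Id3 is the only filled gene between genotypes, and 6 genes in WT and 4 in TCF-1 cKO are filled between stages, all lower at day 7.

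The stages were compared next within each genotype, which asks how these genes differed between donor cells before transplant and alloactivated cells at day 7. In WT, 6 of the 7 genes were lower at day 7, while 10.3% of all genes fell and 9.7% rose (edgeR, FDR below 0.1). Foxp1 was at 126, 210 and 204 TPM before transplant and at 6.49, 2.70 and 8.41 TPM at day 7, with a log2 fold change of -3.92 ± 0.52 (edgeR, adjusted p = 0.00189). Bach2 was at 11.9, 29.9 and 6.12 TPM before transplant and at 0.0919, 0.606 and 0.248 TPM at day 7 (-3.78 ± 0.80, edgeR, adjusted p = 0.0129). Bcl6 was at 5.06, 17.9 and 14.4 TPM and then at 0.805, 0.163 and 0.288 TPM (-3.69 ± 0.82, edgeR, adjusted p = 0.0155). All of these groups lie far apart, with every day 7 library below every pre-transplant library. Foxo1 (-2.77 ± 0.53), Satb1 (-2.28 ± 0.52) and Id3 (-1.99 ± 0.55) fell by less (edgeR, adjusted p = 0.00772, 0.0183 and 0.037). Id3 lost its call without pre-transplant replicate 1, 2 or 3 or post-transplant replicate 1 (edgeR, adjusted p = 0.106 to 0.232), and Satb1 without pre-transplant replicate 3 or post-transplant replicate 1 (edgeR, adjusted p = 0.108 and 0.107). With the offset for GC content and length, Satb1 was at -1.23 and Foxo1 at -1.61 (edgeR, adjusted p = 0.0806 and 0.043).

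Myb did not pass the test in WT. It was at 7.74, 6.85 and 0.95 TPM before transplant and at 1.08, 1.21 and 3.12 TPM at day 7, so that the stages overlap, and its log2 fold change was -0.24 ± 0.83 (edgeR, adjusted p = 0.883). The third pre-transplant library, with 70 counts for Myb, lies apart from the other 2, which have 380 and 712. The median log2 fold change of the 7 was -2.77, beside -0.30 over all genes tested. In TPM, 6 of the 7 were lower at day 7 without overlap, beside 44.2% of all genes lower and 4.98% higher. In TMM-normalized CPM the same 6 were apart, beside 33.2% of all genes in either direction.

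In TCF-1 cKO, 4 of the 7 genes were lower at day 7 (16.8% of all genes fell and 19.7% rose). Id3 had the largest difference of the 7, from 131, 111 and 211 TPM before transplant to 2.04, 0.367 and 0.723 TPM at day 7, with a log2 fold change of -5.26 ± 0.79 (edgeR, adjusted p = 0.00115). Bach2 (-3.17 ± 0.50), Foxp1 (-3.15 ± 0.44) and Bcl6 (-2.70 ± 0.66) also fell (edgeR, adjusted p = 0.00157, 0.000811 and 0.0144). Foxp1 went from 140, 123 and 208 TPM to 7.16, 3.22 and 5.01 TPM. The values of these 4 genes did not overlap between the stages.

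For the other 3 genes in TCF-1 cKO the answer depended on the scale. Foxo1 was at -1.11 ± 0.47 (edgeR, adjusted p = 0.111), and it passed the threshold under DESeq2 (adjusted p = 0.0933), with library totals in place of TMM factors (edgeR, -2.68, adjusted p = 0.00111) or without pre-transplant replicate 1 (edgeR, adjusted p = 0.0607). Satb1 went in TPM from 24.5, 29.1 and 21.9 to 3.83, 6.10 and 4.31, yet the fit on its counts gave 0.15 ± 0.34 (edgeR, adjusted p = 0.769), with library totals -1.44, and with counts scaled from TPM -0.50. Myb went from 9.46, 11.4 and 4.96 TPM to 1.97, 2.90 and 2.19 TPM, while the fit gave 0.39 ± 0.42 (edgeR, adjusted p = 0.528) and, with library totals, -1.25. All 7 genes were lower at day 7 without overlap in TPM, beside 59.1% of all genes lower and 8.17% higher. In TMM-normalized CPM, 5 of the 7 were apart (not Satb1 and Myb), beside 51.8% of all genes in either direction.

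Library composition also differed between the stages. The 100 most abundant genes held 23.4 to 27.7% of counts before transplant and 35.6 to 41.0% at day 7, and TMM factors, which are set so that most genes do not move, were 1.09 to 1.93 and 0.503 to 0.809. With library totals the median over all genes moved from -0.30 to -1.25 in WT and from -0.29 to -1.89 in TCF-1 cKO, and the share of called genes that were lower rose from 51.6% to 85.2% and from 46.0% to 86.5%. Relative to that shift, Satb1 and Myb in TCF-1 cKO stayed above the median gene and the other 5 below it.

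The stage differences were also set against the marker levels. Per 1000 TPM of CD8 T cell markers, 6 of the 7 genes in WT and all 7 in TCF-1 cKO were lower at day 7 without overlap, beside 68.2% and 86.7% of all genes, and of the 7 only Myb in WT overlapped. Per 1000 TPM of B cell markers, none of the 7 was lower in WT, and Id3, Foxo1, Myb and Satb1 were higher without overlap, beside 77.6% of all genes. On that scale Foxp1 ranged from 8.94 to 19.4 TPM before transplant and from 8.53 to 37.8 TPM at day 7 in WT. In TCF-1 cKO, Id3 alone was lower per B cell marker, at 12.5 to 19.4 TPM before transplant and 2.35 to 10.3 TPM at day 7, and 5 genes were higher, beside 1.12% of all genes lower and 79.3% higher. This scale turned on Ighm, which held most of the B cell marker TPM at day 7. Without it, a choice made after the data were seen, Id3 in TCF-1 cKO ranged from 28.0 to 40.4 TPM before transplant and from 20.9 to 82.5 TPM at day 7, which overlap, and 6 genes in WT (all but Bach2) and 6 in TCF-1 cKO (all but Id3) were higher without overlap, beside 87.3% and 89.0% of all genes. The part of the B cell, erythroid and myeloid RNA in the fall of these genes was not tested.

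**Figure D4:**
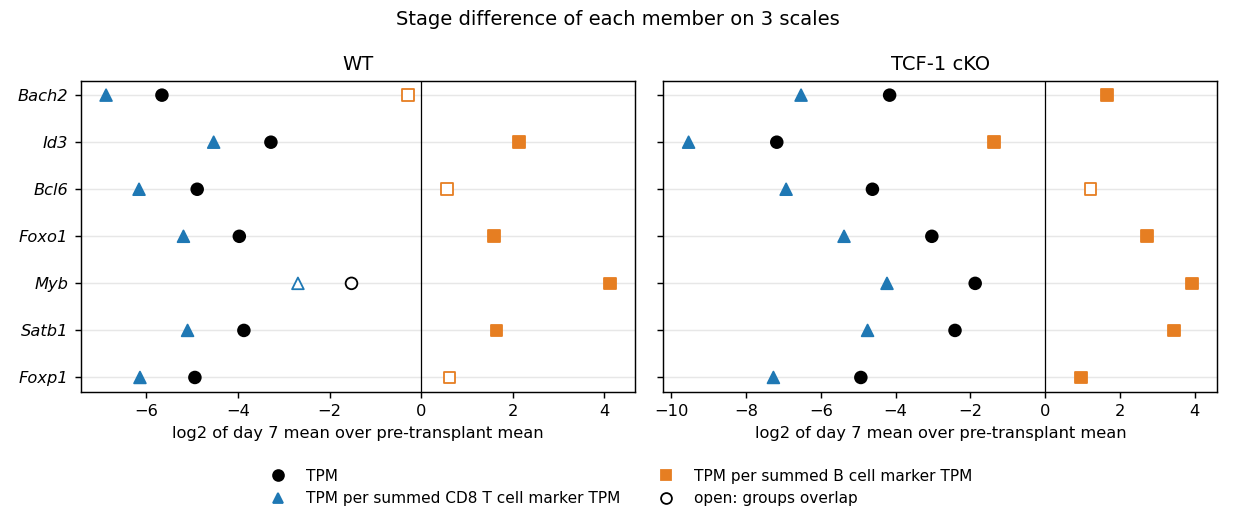
Stage difference of the 7 genes as the log2 ratio of the day 7 mean over the pre-transplant mean (x axis), in WT (left) and TCF-1 cKO (right), in TPM, per CD8 T cell marker TPM and per B cell marker TPM. Open symbols mark groups that overlap. In TPM and per CD8 T cell marker every ratio is below 0, while per B cell marker only Bach2 in WT (-0.29) and Id3 in TCF-1 cKO (-1.37) are below 0. Without Ighm among the B cell markers, which is not drawn, these ratios are 1.71 and 0.56.

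An interaction term, fitted on the 12 libraries together, asked whether the genotype difference changed from one stage to the other. None of the 7 passed, and of all genes 0.0% were higher and 0.00465% lower (edgeR, 3377 of 21526 genes at an unadjusted p under 0.05). Id3 had a change of -3.53 ± 0.93 and Satb1 one of 2.19 ± 0.60 (edgeR, adjusted p = 0.233 for both). The other 5 genes lay between 0.32 and 1.41, with adjusted p-values of 0.325 to 0.896 in edgeR. DESeq2 called Id3 and Satb1 (adjusted p = 0.00988 and 0.00735), beside 7.96% of all genes, and so did edgeR without WT post-transplant replicate 3 (adjusted p = 0.0509 and 0.0585), beside 8.73% of all genes. In that library Gzma, a granzyme gene of effector CD8 T cells and NK cells, was at 6270 TPM, against 2340 and 397 TPM in the other WT libraries and 6030 to 7900 TPM in TCF-1 cKO at day 7. The part of this difference in the calls was not tested.

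The other genes of these pathways were followed in lists, and the counts at day 7 stand beside 15.4% of all genes that fell and 2.51% that rose. Among family members of the 7 genes (14 genes, 11 tested), 3 fell at day 7 between genotypes, namely Mybl2 (-3.55 ± 0.82), Foxp3 (-3.99 ± 1.20) and Foxp4 (-3.00 ± 0.97) (edgeR, adjusted p = 0.0448 to 0.0858). Partners and regulators of the 7 had 6 calls among 15, all lower, led by Tcf3, the E protein gene that Id3 counters (-4.15 ± 0.89), Akt2, a kinase upstream of Foxo1 (-3.08 ± 0.66), and Mafk, a small Maf partner of Bach2 (-3.66 ± 0.85). With the offset for GC content and length, 0 of these 6 and 0 of the 3 family members that fell passed in edgeR.

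Among 11 other naive and memory transcription factors, 1 gene was called between genotypes at day 7, Klf2, which controls T cell exit from tissue (-1.82 ± 0.56, edgeR, adjusted p = 0.075; 0.64 with the GC offset, adjusted p = 0.319). Lef1, the relative of TCF-1, was at -0.78 ± 0.48 (edgeR, adjusted p = 0.313). Of 12 effector factors, Tbx21 (-3.10 ± 0.68), Runx3 (-2.50 ± 0.63) and Bhlhe40 (-1.82 ± 0.52) fell, while Id2, the counterpart of Id3 in effector cells, was at 0.48 ± 0.44 and Prdm1, which Bach2 and Bcl6 repress, at -0.55 ± 0.59 (edgeR, adjusted p = 0.495 and 0.566). Of 14 Foxo1 targets and surface genes, Cxcr3 (-3.86 ± 0.76), Klf2 and S1pr1 (-1.50 ± 0.48) fell, and Il7r (-0.11) and Ccr7 (-1.99) did not pass. With the offset only Bhlhe40 (adjusted p = 0.0949), Cxcr3 (0.0925) and S1pr1 (0.0929) of these passed in edgeR. Before transplant no gene of these 5 lists was called.

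Between the stages the list counts stand beside 10.3% of all genes that fell and 9.7% that rose in WT, and 16.8% and 19.7% in TCF-1 cKO. In the family list 2 genes rose and 1 fell in WT, led by Mybl2 (3.63 ± 0.76), and 2 rose and 0 fell in TCF-1 cKO. Of the partners and regulators, 2 rose and 2 fell in WT, and 3 rose and 3 fell in TCF-1 cKO. In WT, 5 of 11 other naive and memory factors fell and 0 rose, led by Klf7 (-3.58 ± 0.71), Tcf7 (-2.71 ± 0.61) and Lef1 (-1.88 ± 0.50), and 7 of 14 Foxo1 targets and surface genes fell, among them the B cell and follicular receptor gene Cxcr5 (-6.05 ± 0.67) and Il6ra (-4.56 ± 0.66). Ccr7, a homing receptor gene, fell too (-4.54 ± 0.66), and 1 gene of this list rose, the chemokine receptor gene Cxcr3 (2.96 ± 0.69). Of 12 effector factors, 4 rose, among them Batf (4.0 ± 0.49), Id2 (2.27 ± 0.52) and Tbx21 (2.89 ± 0.67), and Zeb2 (-3.57 ± 0.67) and Irf4 (-2.88 ± 0.95) fell. In the TMM fit of TCF-1 cKO, 7 effector factors rose and 2 fell. Among those that rose, Batf was at 5.98 ± 0.52, Id2 at 3.98 ± 0.39, Hif1a at 2.52 ± 0.36 and Prdm1 at 1.95 ± 0.54. In TPM, Prdm1 was instead lower at day 7 without overlap (5.23, 12.2 and 7.02 before transplant, then 4.23, 1.81 and 1.64). Hif1a overlapped between the stages in TPM (7.56 to 11.7, then 11.5 to 14.1). Batf and Id2 were higher at day 7 without overlap in TPM. Of the other naive and memory factors in TCF-1 cKO, 4 of 11 fell and 1 rose in the TMM fit, Eomes (1.76 ± 0.44). In TPM, Eomes overlapped between the stages (9.81, 7.63 and 3.76 before transplant, then 5.22, 4.71 and 5.05). Its mean TPM was lower at day 7 (4.99, against 7.07 before transplant). Of the 14 Foxo1 targets and surface genes 6 fell, among them Cxcr5 (-7.46 ± 0.77) and Ccr7 (-4.91 ± 0.94), and Klf2 (0.24) and Il7r (0.32) did not pass. In the TMM fit 3 rose, Slamf6 (2.20 ± 0.41), Cd28 (2.73 ± 0.53) and Cd27 (1.83 ± 0.64). In TPM these 3 overlapped between the stages, with means going from 57.2 to 61.5 (Slamf6), 8.16 to 10.8 (Cd28) and 50.7 to 45.9 (Cd27). Cxcr5 and Ccr7 are also used by B cells, whose markers fell between the stages.

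Transcripts of the 7 genes were then compared as shares of the TPM of their gene. In all, 21 transcripts made up 10% or more of their gene in some group, and 29 of the 84 pairs of transcript and comparison did not overlap. Bach2-201, a coding transcript that starts at position 32238950 of chromosome 4 (GRCm38), made up 45.2, 40.5 and 39.5% of Bach2 in WT before transplant and had no count in any of the 6 day 7 libraries, where 3 counts are the least that a library was taken to show. Bach2-207, a coding transcript that starts downstream at 32417435, made up 74.8, 68.2 and 100% of Bach2 in WT at day 7, from 22.0, 111.6 and 51.7 counts. In TCF-1 cKO at day 7 its share was 21.7, 15.1 and 31.8%, from 27.1 to 104.4 counts, and the genotypes did not overlap. The rest there was in short non-coding Bach2 transcripts of 5.7 counts or fewer each, which are 336 to 658 bases long, so that 1 count is worth more TPM than in Bach2-207. Shares that rest on so few counts are imprecise.

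Bcl6 has only 2 transcripts, and its coding share was lower in TCF-1 cKO at both stages. Bcl6-202, an intron-retaining transcript without a coding frame, made up 3.42, 10.1 and 0.245% of Bcl6 in WT and 18.3, 30.7 and 21.4% in TCF-1 cKO before transplant. At day 7 it made up 2.01, 27.4 and 5.62% in WT and 40.4, 83.8 and 43.8% in TCF-1 cKO, where it rests on 13.4, 51.2 and 7.0 counts. Neither pair of groups overlaps, beside 14.6% of 41746 transcripts before transplant and 12.6% at day 7 (exact permutation test, two-sided, p = 0.1 each, the smallest that 3 against 3 allow). Over the whole transcriptome, intron-retaining transcripts held 5.54 to 7.23% of TPM in WT and 7.23 to 9.55% in TCF-1 cKO before transplant, and 2.58 to 2.85% and 2.72 to 2.97% at day 7. Their part in the Bcl6 values was not tested.

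Foxp1, with the most transcripts of the 7, shifted between coding forms. Foxp1-228, which starts at position 99163018 of chromosome 6, made up 19.2 to 30.9% of Foxp1 in WT before transplant and at most 0.148% in WT at day 7. Foxp1-225, a shorter coding form that starts at 99028259, made up 24.8, 35.1 and 22.7% in WT at day 7 and 6.31, 3.18 and 1.19% in TCF-1 cKO, from 49.0 to 98.3 counts and from 3.5 to 19.4 counts. Several Foxp1 transcripts share most of their exons, so reads could be split between them uncertainly. For Satb1, Satb1-213, which is 6194 bases long, went from 2.97 to 10.4% before transplant to 14.7 to 47.6% at day 7 in WT, and from 0.0 to 4.9% to 29.3 to 58.0% in TCF-1 cKO, while the form with the largest share in WT before transplant (2896 bases) went from 49.3 to 62.1% to 7.89 to 36.7% in WT. Over all transcripts, 17.9% in WT and 23.6% in TCF-1 cKO did not overlap between the stages.

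**Figure D5:**
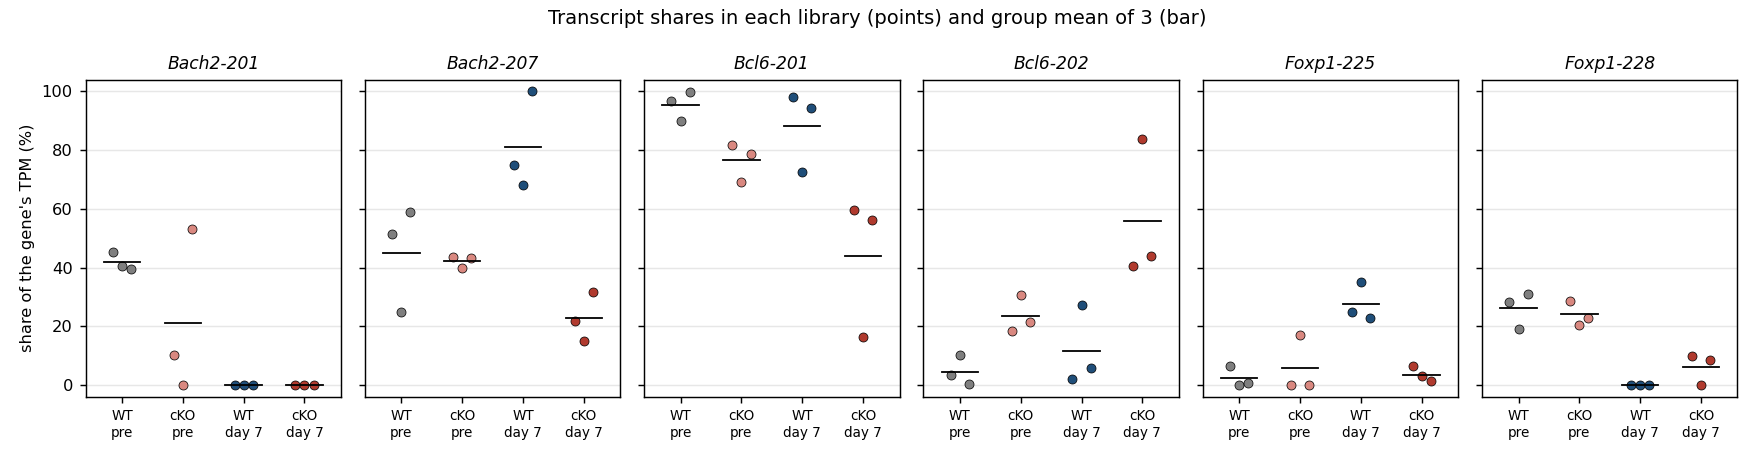
Share of the TPM of the gene (y axis, percent) held by 6 transcripts of Bach2, Bcl6 and Foxp1 in the 4 groups (x axis), with a point for each library and a bar for the mean of 3. Bach2-201 and Foxp1-228 are at or near 0 in WT at day 7, and Bcl6-202 is higher in TCF-1 cKO than in WT at both stages.

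The start sites behind these shares are shown with their upstream sequence, to let the promoters of the forms that remained at day 7 be read. RefSeq windows of GRCm38.p6 were found for all 7 genes (14 windows of 300 bases, 250 before and 50 after a start), and the parts outside GENCODE exons of the gene are printed 5′ to 3′ on the strand of the gene. The first lies before the start of Bach2-207 on the plus strand (chr4:32417185-32417434). The others lie on the minus strand before the start of Foxp1-225 (chr6:99028314-99028548) and before an upstream Foxp1 start (chr6:99266533-99266765). Capitals mark the TCF/LEF motif, searched on both strands as the letters CTTTGAA, as CTTTGAT where the last letter differs, and in the same way as CTTTGTA and as CTTTGTT.
Bach2: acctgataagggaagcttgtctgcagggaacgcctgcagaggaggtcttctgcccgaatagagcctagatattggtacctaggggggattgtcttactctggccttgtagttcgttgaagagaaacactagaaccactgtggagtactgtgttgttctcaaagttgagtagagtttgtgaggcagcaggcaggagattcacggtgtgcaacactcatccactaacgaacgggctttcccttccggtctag
Foxp1 downstream: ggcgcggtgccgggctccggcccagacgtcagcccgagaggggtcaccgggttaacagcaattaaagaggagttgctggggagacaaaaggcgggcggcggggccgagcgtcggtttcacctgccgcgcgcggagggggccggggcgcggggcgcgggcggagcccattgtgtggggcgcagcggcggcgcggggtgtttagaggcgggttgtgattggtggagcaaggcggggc
Foxp1 upstream: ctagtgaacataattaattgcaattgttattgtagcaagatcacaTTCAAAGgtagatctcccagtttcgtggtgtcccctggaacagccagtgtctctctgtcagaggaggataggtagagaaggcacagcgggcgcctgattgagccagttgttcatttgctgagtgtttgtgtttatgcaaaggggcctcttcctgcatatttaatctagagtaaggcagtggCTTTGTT
Of the 14 windows 5 hold the motif (35.7%), beside 16.9% of 32851 windows over all genes. They belong to Foxp1, Myb and Satb1, and the pair of Satb1 windows overlap and share 1 match. The windows of Id3, Bach2, Bcl6 and Foxo1 hold none, which says only that these letters are not in those 300 bases. The forkhead motif GTAAACA, searched on both strands, was found in 1 window, that of Myb, where it does not overlap the TCF/LEF match, and in 3.65% of all windows.

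Genes whose pattern over the 12 libraries was most like each of the 7 were named by Pearson's r of log2 CPM among 21525 genes, as a description, since all points share library, depth and cell makeup. For Foxp1 they were Ifngr2 (r = 0.983), Mzb1 (0.981) and S1pr5 (0.98), for Bach2 Saa3 (0.977), Igf1 (0.962) and Supt7l (0.959), and for Foxo1 Pakap (0.976), Igkv4-57-1 (0.957) and Bptf (0.956). Mzb1 and Igkv4-57-1 are genes of the B lineage. For Id3 they were Pde4a (0.973), Pltp (0.971) and Cyb561a3 (0.966), for Satb1 Myo10 (0.974), Btbd11 (0.948) and Arid4b (0.944), for Bcl6 Rasa4 (0.962), Pcnt (0.952) and Treml2 (0.95), and for Myb Nmnat2 (0.93), Abcc12 (0.907) and 4921524J17Rik (0.905). Spearman's rho of these pairs was 0.804 to 0.972. Among the 7 themselves, Bach2 and Foxp1 were most alike (r = 0.909 over 12 libraries), and r was 0.217 once the group means were removed.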

How the data were processed

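RNA was measured by RNA-seq in 12 libraries, grouped by their titles (SMART-Seq HT cDNA from total RNA, Nextera XT libraries, paired-end NovaSeq reads). The authors pseudoaligned the reads with Kallisto and deposited, for each of 117497 transcripts, an estimated count, not scaled for depth or length. The authors also deposited Kallisto's TPM, which is scaled for effective length and library total. The submitters' processing notes name Kallisto 0.46.2, limma and the build mm9; the transcript release is not given in the sources used here. Transcripts were joined without version numbers to GENCODE M21 (GRCm38), which matched 116374 of them and all 64 transcripts of the 7 genes, at equal lengths, and were summed into 35855 genes, whose counts were rounded.

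Each comparison was fitted over all genes on its own 6 libraries (12 for the interaction) with edgeR 4.0.16 in R 4.3.3 (TMM, filterByExpr, quasi-likelihood test, Benjamini-Hochberg over all genes tested, FDR below 0.1). SEs were derived from each fold change with its F value. The study's test was voom and limma, run here as an alternative (limma 3.58.1), as was DESeq2 1.42.0. The GC and length offset took a loess trend (span 0.4, degree 2) from each library. For single values, groups of 3 went into an exact permutation test (two-sided, SciPy 1.17.1), whose smallest p is 0.1. The fit was tested on simulated data with 200 changed genes.

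Levels at or under 3 counts (0.0919 to 0.664 CPM) were taken as the floor of a library; reads carry no molecular identifiers, so this covers counting error only. The named genes were the 7, Tcf7, Cd4, Cd8a, up to 3 called genes with the smallest p of each list in each comparison, Prdm1, Id2, Klf2, Il7r, Ccr7 and Lef1, and the 3 most alike genes of each of the 7; some genes that this rule names are not reported here. Foxp4, Irf4, Tbx21 and Cxcr3 between stages in WT, Cd27 and Cd28, the marker genes named singly and the example marker genes were named after their values were seen. The 7 genes and the lists were chosen with earlier results of these data known. Id2 stands in both the family and the effector list, and Klf2 in both the Foxo1 target list and the list of other naive and memory factors. Protein sequences were not used here.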

Additional observations from a re-analysis of the deposited data

Results flagged for a closer look

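Satb1 in TPM differed between the genotypes in opposite directions at the 2 stages in every library. The share of all genes that did so was not computed. In TPM Satb1 was lower in all 3 TCF-1 cKO libraries before transplant (21.9 to 29.1 against 31.7 to 49.5 in WT) and higher in all 3 at day 7 (3.83 to 6.10 against 1.87 to 3.62). The test of this change, an interaction over 12 libraries, gave 2.19 ± 0.60 on the log2 scale (edgeR, adjusted p = 0.233, range 0.00735 to 0.423 over its alternatives), so it did not pass in edgeR as reported and did in DESeq2. Summed CD8 T cell markers stood at 905 to 1060 TPM against 2060 to 2140 TPM before transplant and overlapped at day 7. Per 1000 TPM of these markers, Satb1 overlapped before transplant (20.6 to 32.1 TPM in TCF-1 cKO, 15.4 to 23.7 TPM in WT). At day 7 Satb1 was higher in TCF-1 cKO on this scale (0.736 to 1.29 against 0.367 to 0.674 TPM), beside 18.5% of all genes higher without overlap. Single genes of that sum moved in opposite directions at day 7. Cd3e (mean 344 TPM in WT and 53.8 TPM in TCF-1 cKO) and Lck (1260 and 284 TPM) were called lower (edgeR, adjusted p = 0.0448 and 0.0533). Cd3g (584 and 1760 TPM) was higher without overlap but did not pass (edgeR, adjusted p = 0.116). The part of these markers in the Satb1 values was not tested.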

How the results depend on the processing

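Of 665 alternative values for single genes, 587 kept direction and side of the threshold, 13 lost a call, 11 gained one, and 54 changed direction, in 12 of 35 gene and comparison pairs that were all without a call. For Bach2, the genotype difference before transplant (-0.03) was 0.03 with counts scaled from TPM, 0.26 with library totals, 0.06 with limma-voom, 0.04 with the replicate block and -0.37 to 0.27 with each library left out; at day 7 (-0.16) it was 1.32, 0.39, 0.26 and 0.22, then 0.09 in 1 fit over 12 libraries, 0.08 with block and GC offset and -0.75 to 0.72 with each library left out. Its interaction (0.32) was -0.14 to 1.15. For Foxo1 at day 7 (0.04) the value was -0.04 with DESeq2 or its size factors, -0.57 with the GC offset, -0.59 with block and offset, -0.02 with counts scaled from TPM, -0.07 without a filter and -0.11 to 0.19 with each library left out. Foxp1 at day 7 (-0.42) was 0.11 with the offset and 0.06 with block and offset, and Bcl6 (-0.30) was 0.12 with library totals and -1.06 to 0.47. For Myb, the value before transplant (0.27) was -0.29 with the offset, -0.09 without a filter and -0.31 to 0.79; at day 7 (0.20) it was -0.46, -0.42 with block and offset and -0.13 to 0.65; between stages in WT (-0.24) it was 0.69 and 0.98, 0.05 in 1 fit over 12 libraries, 0.04 with limma-voom and -0.72 to 0.33; between stages in TCF-1 cKO (0.39) -1.25 with library totals; and its interaction (0.35) -0.08 with the offset, -0.22 with block and offset, -0.10 with library totals and -0.36 to 1.04. Satb1 between stages in TCF-1 cKO (0.15) was -1.44 with library totals and -0.50 with counts scaled from TPM. The cause of these changes was not tested.

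Of the 7 genes, 0 were called between genotypes before transplant, 1 with DESeq2 and 0 to 2 with each library left out; at day 7 1 was called, 0 with block and GC offset and 0 to 1 with each library left out; between stages 6 in WT (4 to 6) and 4 in TCF-1 cKO (4 to 5, and 7 with library totals); and 0 in the interaction, 2 with DESeq2, 1 without a filter and 0 to 2 with each library left out, 2 being without WT post-transplant replicate 3. In WT between stages, Id3 lost its call without pre-transplant replicate 1, 2 or 3 or post-transplant replicate 1 (adjusted p 0.106 to 0.232, edgeR) and Satb1 without pre-transplant replicate 3 or post-transplant replicate 1 (0.108 and 0.107) or with block and GC offset (-1.18, adjusted p = 0.13). Neighbouring groups without overlap numbered 11 (9 with TMM-normalized CPM, 13 per CD8 T cell marker TPM, a scale chosen after seeing the data, and 11 to 13), and transcript pairs without overlap 29 (29 to 34). Per B cell marker TPM between stages, leaving out Ighm (also chosen after seeing the data) moved Bach2 in WT from -0.29 to 1.71 and Id3 in TCF-1 cKO from -1.37 to 0.56 on the log2 scale, and the genes lower in TCF-1 cKO from 1 to 0.

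Before transplant, calls over all genes moved from 7 (3 higher, 4 lower) to 1455 with DESeq2, 619 without a filter, 20 with block and offset, 12 (9 higher, 3 lower) with library totals, 3 with DESeq2 size factors or 1 fit over 12 libraries, 2 with limma-voom or FDR below 0.05, 0 with the block and 2739 without TCF-1 cKO replicate 3. At day 7 they moved from 2868 to 4525 with DESeq2, 1396 at FDR below 0.05, 642 with the GC offset, 2 with block and offset, 5299 without WT replicate 3 and 0 to 2 without any other library. Between stages they moved from 3362 to 1579 to 2134 without WT pre-transplant replicate 1, 2 or 3 or post-transplant replicate 1 and from 6774 to 12268 with library totals in TCF-1 cKO, and in the interaction from 1 to 1713, 580, 5, 2 and 0 with DESeq2, no filter, library totals, the offset and the block, and to 2093 without WT post-transplant replicate 3. The replicate numbers did not pair the libraries: deviations from the group means of same-numbered libraries correlated at -0.106 to 0.115. With the replicate block 1 of the 7 genes was called at day 7 (Id3, -4.62, adjusted p = 0.0805), 6 and 4 between stages, and 0 before transplant and in the interaction. Depth limits the pre-transplant TCF-1 cKO group and Bcl6, Bach2 and Id3 at day 7, where single libraries hold 10 to 114 counts for some of them.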

Other observations

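At day 7 other marker lists differed between the genotypes beside Id3. Summed over 6 plasmacytoid dendritic cell markers the level was 79.9 to 237 TPM in WT and 31.7 to 60.4 TPM in TCF-1 cKO, a difference held by Bst2 (mean 98.6 and 29.6 TPM) and Irf8 (68.0 and 10.6 TPM), which other cells use too, while Siglech (0.456 and 0.777 TPM) and Ccr9 (1.11 and 1.71 TPM) were not lower. Over 3 CD4 T cell markers it was 5.03 to 7.79 TPM and 0.754 to 3.91 TPM. Most of that difference lay in Zbtb7b (mean 4.26 and 0.808 TPM, edgeR, adjusted p = 0.0621). Cd4 (1.65 and 1.07 TPM) and Cd40lg (0.828 and 0.547 TPM) overlapped between the genotypes (edgeR, adjusted p = 0.923 and 0.678). Myeloid markers came to 152 to 238 TPM in WT and 258 to 929 TPM in TCF-1 cKO, without overlap, which S100a8 (mean 93.0 and 273 TPM), S100a9 (29.8 and 179 TPM) and Lyz2 (9.47 and 50.5 TPM) carried, while Csf1r, Cd68 and Itgam had log2 fold changes of -1.76, -1.37 and -1.27 and did not pass (edgeR, adjusted p = 0.142, 0.159 and 0.397). Erythroid markers came to 377 to 3000 TPM and 389 to 960 TPM, which overlap. The part of this RNA in the Id3 difference was not tested.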
